A study of Arabidopsis thaliana with 6 samples.

Results

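The genes described here are 10 *Arabidopsis thaliana* genes of phosphate uptake and phosphate signalling, taken by their locus identifiers out of 33557 genes in each expression table. They are the SPX-domain genes *SPX1* (AT5G20150), *SPX2* (AT2G26660), *SPX3* (AT2G45130) and *SPX4* (AT5G15330), the phosphate transporter genes *PHT1;1* (AT5G43350) and *PHT1;4* (AT2G38940), *PHO1* (AT3G23430), *PHO2* (AT2G33770), *PHR1* (AT4G28610) and *PHF1* (AT3G52190). The rule names them by identifier and uses no expression value, but the genes were chosen with earlier results of these data known. The study sequenced RNA from whole roots of 10-day-old *CEPDL2ox* plants (3 libraries) and WT plants (3 libraries), both grown with 10 mM nitrate. *CEPDL2ox* plants carry *CEPDL2*, which encodes a glutaredoxin-like polypeptide, under the constitutive cauliflower mosaic virus 35S promoter in the Col background, and WT is Col. Which transgenic line gave the roots is not given in the sources used here. The study's methods describe the replicates of its experiments as independent biological ones. Phosphate supply was not a variable of the design.

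Plants take up inorganic phosphate at the root surface through PHT1 transporters, and PHO1 passes it on toward the xylem. PHR1, a MYB-type transcription factor, switches on genes of the phosphate starvation response, and SPX proteins that have bound inositol pyrophosphates hold it back when phosphate is plentiful. PHO2 is a ubiquitin-conjugating enzyme that promotes the breakdown of PHT1 and PHO1 proteins, and its own mRNA is a target of the microRNA miR399, which starved plants make in large amounts. The noncoding RNAs *IPS1* and *AT4* bind miR399 without being cut and so keep it from *PHO2*.

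Expression is given as FPKM (fragments relative to transcript length and sequencing depth), so that levels can be compared between genes. Differences are log2 fold changes on the log2(FPKM + 1) scale, *CEPDL2ox* minus WT, from limma fitted over the 19597 genes that averaged 1 FPKM or more, with Benjamini-Hochberg adjusted p-values over all of them. A gene is called higher or lower at an adjusted p under 0.05, and a fold threshold of an absolute log2 fold change above 1 is given as well. For a single gene, the smallest p of the exact permutation test (two-sided) is 0.10 with 3 libraries against 3. A library was estimated at between 5138000 and 6274000 reads from the steps of low values. *CEPDL2* itself had 7948, 8838 and 8337 FPKM in *CEPDL2ox* roots, against 3.27, 5.78 and 9.45 FPKM in WT roots. The 8 root markers summed to between 316.2 and 339.7 FPKM in *CEPDL2ox* libraries and to between 282.9 and 320.9 FPKM in WT libraries. The 14 markers of green and aerial tissue summed to 395.7, 482.6 and 244.8 FPKM in *CEPDL2ox* libraries, against 3017, 552.8 and 474.3 FPKM in WT libraries, and 13 of the 14 were highest in WT replicate 1. That library therefore stood apart from the rest, and values without it are given where they touch a result.

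Among the 10 phosphate genes, *PHT1;1* was higher and *PHO2* was lower in *CEPDL2ox* roots, and neither change reached the fold threshold. *SPX1* lay above WT in every library but missed the adjusted threshold. *PHO1*, *PHR1* and *PHF1* had log2 fold changes within 0.08 of 0. Of the 10 genes, 9 passed the filter on low values, and *SPX3* did not. The 1 gene called higher compares with 3.71% of all genes tested that were called higher, and the 1 gene called lower with 2.00%. None passed the adjusted p and the fold threshold together in limma, compared with 1.16% of all genes upward and 0.424% downward, while 3 of the 9 had an unadjusted p under 0.05, compared with 23.1% of all genes tested. The libraries of *CEPDL2ox* lay above those of WT without overlap in 3 genes (13.8% of all genes tested) and below them in 1 gene (16.1%). The median log2 fold change of the 9 genes was 0.07, and that of all genes tested was -0.03. These are bulk samples, in which fewer cells of a type and less RNA per cell cannot be told apart.

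**Figure D1:**
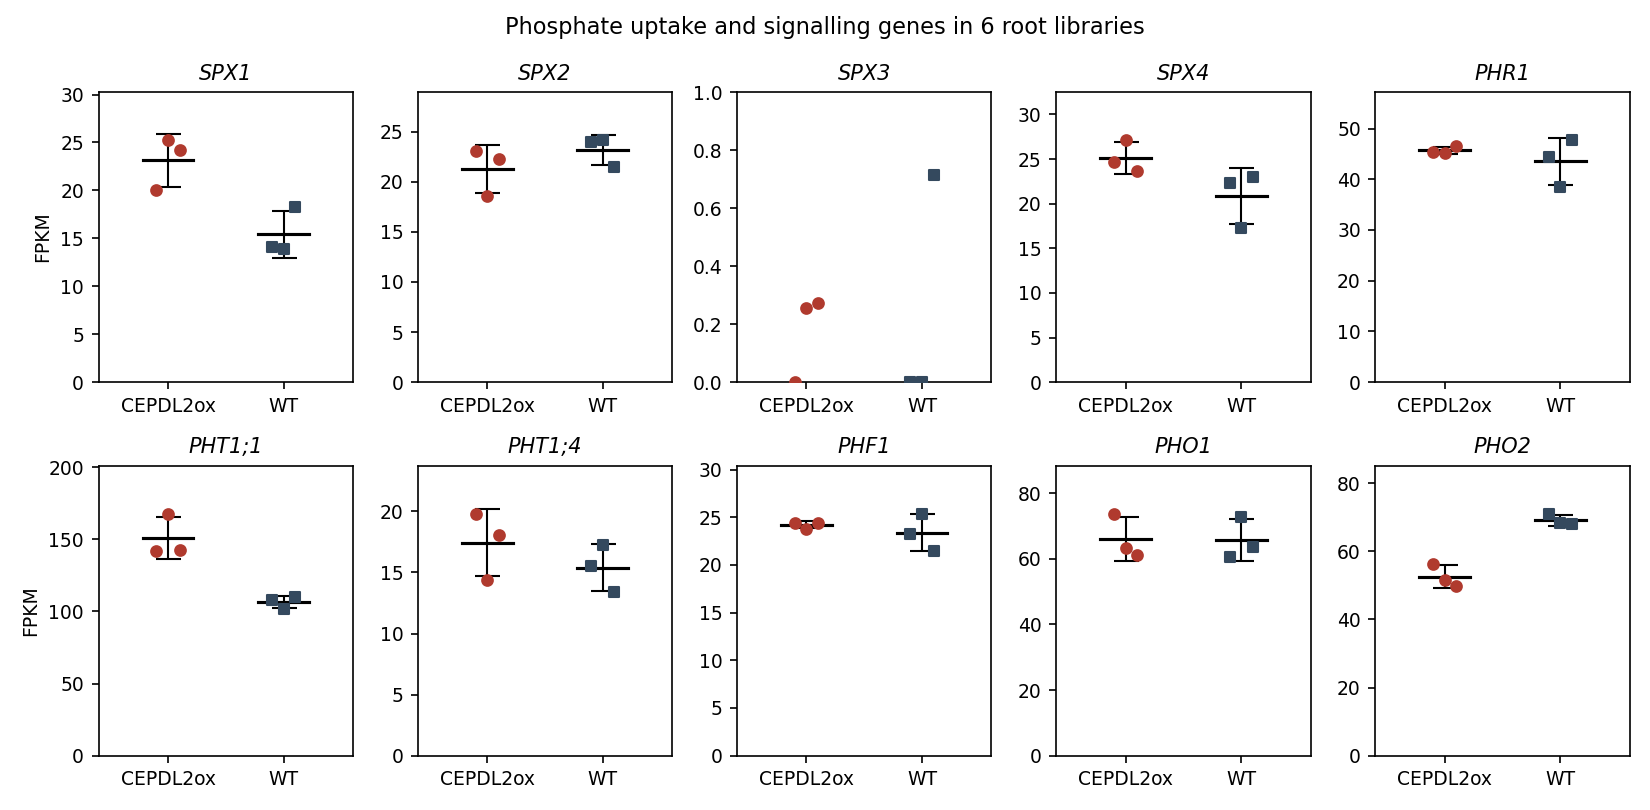
FPKM of the 10 phosphate uptake and signalling genes in each root library (points, *CEPDL2ox* left and WT right), with the mean and SD of the 3 libraries as bars except for *SPX3*, which is listed at 0 in some libraries. The points of *PHT1;1*, *SPX1* and *SPX4* lie above WT without overlap, those of *PHO2* lie below, and the other genes overlap.

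*PHT1;1* was the most abundant of the 10 genes in both groups, with 150.7 ± 14.7 FPKM in *CEPDL2ox* roots and 106.7 ± 4.16 FPKM in WT roots (SD, n = 3 each). In WT roots it was followed by *PHO2* (69.1 ± 1.67 FPKM) and *PHO1* (65.6 FPKM), whose WT libraries overlapped, and in *CEPDL2ox* roots by *PHO1* (66.1 FPKM) and then *PHO2* (52.6 ± 3.27 FPKM), whose libraries did not overlap there. *PHR1* came next in both groups. *PHF1*, *SPX2*, *SPX4*, *SPX1* and *PHT1;4* formed a lower tier, between 17.4 and 25.1 FPKM in *CEPDL2ox* roots and between 15.4 and 23.4 FPKM in WT roots, in which neighbours in the order overlapped. *SPX3* was nearly silent in all 6 libraries.

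The SPX genes encode the phosphate sensors, and none of the 3 that were tested was called. *SPX1*, a nuclear inhibitor of PHR1 whose own transcript is a known marker of phosphate starvation, had 20.04, 25.2 and 24.2 FPKM in *CEPDL2ox* roots, against 14.1, 13.9 and 18.2 FPKM in WT roots. Every *CEPDL2ox* library was above every WT library, though WT replicate 3 came close to *CEPDL2ox* replicate 1. The log2 fold change was 0.56 (standard error 0.14, limma adjusted p = 0.057), with an unadjusted p of 0.0036 and an exact permutation p of 0.10. Its adjusted p fell below the threshold in other settings, at 0.045 when only genes averaging 5 FPKM or more were kept and at 0.046 without WT replicate 3, and it was 0.16 without WT replicate 1.

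*SPX4*, the SPX gene known not to be induced by starvation, had 24.6, 27.1 and 23.7 FPKM in *CEPDL2ox* roots, against 22.3, 17.3 and 22.9 FPKM in WT roots. The groups did not overlap, but the gap between the lowest *CEPDL2ox* and the highest WT library was small beside the spread within WT. Its log2 fold change of 0.27 (standard error 0.12, limma adjusted p = 0.24) did not pass the test. *SPX2*, a close relative of *SPX1*, had 23.1, 18.5 and 22.2 FPKM in *CEPDL2ox* roots, against 23.9, 24.1 and 21.5 FPKM in WT roots. The libraries of *SPX2* overlapped, and the 95% interval of its log2 fold change ran between -0.37 and 0.13 (limma adjusted p = 0.54).

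*SPX3*, the fourth family member and another transcript known to be induced by starvation, was listed at 0, 0.254 and 0.272 FPKM in *CEPDL2ox* roots, against 0, 0 and 0.713 FPKM in WT roots. At the estimated depth this is about 0, 1 and 1 reads against 0, 0 and 3 reads, so that no difference was detectable at this depth. *SPX3* is also the only one of the 10 genes with the core letters of a PHR1 site in the 250 bases before its annotated start. The motif searched was GNATATNC, which reads the same on both strands, and 5.5% of the promoters of protein-coding genes of the same length hold it. The sequence is shown because it sets a promoter with 2 matches beside a transcript that was barely detected. It lies at chr2:18606160-18606409 on the plus strand of TAIR10.1 (RefSeq), with the matches in capitals, GAATATGC starting 213 bases and GCATATCC starting 90 bases before the start.

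*SPX3* promoter: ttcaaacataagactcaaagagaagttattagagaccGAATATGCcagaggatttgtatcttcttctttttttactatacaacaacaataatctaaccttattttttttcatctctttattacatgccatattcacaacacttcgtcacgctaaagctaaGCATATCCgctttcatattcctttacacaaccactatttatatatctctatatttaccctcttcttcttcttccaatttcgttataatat

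*PHR1* showed little difference at the level of RNA. It had 45.5, 45.2 and 46.5 FPKM in *CEPDL2ox* roots, against 44.5, 38.5 and 47.7 FPKM in WT roots. The *CEPDL2ox* libraries fell inside the range of the WT libraries. The 95% interval of its log2 fold change ran between -0.14 and 0.29 (limma adjusted p = 0.67), and its point estimate of 0.07 became -0.02 when the libraries were scaled to the same summed FPKM. Changes in PHR1 protein or in its binding by SPX proteins were not measured.

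*PHT1;1* encodes the main high-affinity phosphate transporter of the root plasma membrane. It lies on chromosome 5 from 17399789 to 17401949 in the tables (TAIR10), on the minus strand, with 3 exons in the reference. It had 142.1, 167.6 and 142.3 FPKM in *CEPDL2ox* roots, against 108.2, 102.0 and 109.9 FPKM in WT roots. The lowest *CEPDL2ox* library was well above the highest WT library, and *CEPDL2ox* replicate 2 was the highest of all. WT replicate 1 lay between the other WT libraries. The ratio of the group means was 1.41, and the log2 fold change was 0.49 (standard error 0.09, limma adjusted p = 0.020), with a 95% interval between 0.29 and 0.69 and an exact permutation p of 0.10. Between about 1159 and 1672 reads per library stood behind these values. The direction held when each library was left out in turn, with log2 fold changes between 0.41 and 0.53, but the adjusted p then ran between 0.045 and 0.067. It was under 0.05 without *CEPDL2ox* replicate 2 or 3, and over it without any other library, at 0.067 without WT replicate 1.

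The gene has near copies beside it on chromosome 5. Of 1938 stretches of 75 bases in its transcript, 1117 (57.6%) occur in *PHT1;2* (AT5G43370) and 99 (5.1%) in *PHT1;3* (AT5G43360) with at most 2 mismatches, so that many reads could have come from either gene. The tables gave *PHT1;2* only 0.509, 0.766 and 1.23 FPKM in *CEPDL2ox* roots, against 0.832, 1.01 and 0.597 FPKM in WT roots. *PHT1;3* was at 0 in 5 libraries and at 0.142 FPKM in the other. How the authors' quantification assigned shared reads is not given in the sources used here, and the value is best read as that of both close copies together.

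*PHT1;4*, which encodes the other PHT1 transporter with a major role in the root, had 19.8, 14.4 and 18.1 FPKM in *CEPDL2ox* roots, against 15.5, 17.2 and 13.4 FPKM in WT roots. The groups overlapped, and its log2 fold change of 0.17 (95% interval between -0.17 and 0.50, limma adjusted p = 0.53) did not pass the test. The ratio of *PHT1;1* to *PHT1;4* within a library was 7.18, 11.6 and 7.87 in *CEPDL2ox* roots, against 6.98, 5.92 and 8.21 in WT roots. These ratios overlapped (exact two-sided permutation p = 0.40), so a difference in response was not shown. The other 7 *PHT1* genes were all under the filter, and 3 of them were listed at 0 in all 6 libraries. *PHT1;9* (AT1G76430), a high-affinity transporter gene of the root, was at 1.06, 1.07 and 1.14 FPKM in *CEPDL2ox* roots, against 0.795, 0.468 and 0.300 FPKM in WT roots. The reported fit did not test *PHT1;9*, and in the fit without a filter it was not called (log2 fold change 0.47, limma adjusted p = 0.15).

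*PHF1*, whose product lets PHT1 proteins leave the endoplasmic reticulum for the plasma membrane, had 24.4, 23.8 and 24.4 FPKM in *CEPDL2ox* roots, against 23.3, 25.4 and 21.5 FPKM in WT roots. The groups overlapped, and the 95% interval of its log2 fold change ran between -0.16 and 0.26 (limma adjusted p = 0.77). *PHO1*, the exporter that loads phosphate into the root xylem, had 73.7, 63.4 and 61.2 FPKM in *CEPDL2ox* roots, against 60.5, 72.8 and 63.6 FPKM in WT roots. The highest and the lowest *PHO1* libraries were in different groups, but the ranges almost coincided. Its log2 fold change was 0.01 (95% interval between -0.23 and 0.25, limma adjusted p = 0.96), and its sign depended on the setting.

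*PHO2*, listed in the tables under its enzyme name *UBC24*, lies on chromosome 2 from 14277558 to 14283040 (TAIR10), on the minus strand. It had 56.2, 51.6 and 49.9 FPKM in *CEPDL2ox* roots, against 71.0, 68.4 and 68.0 FPKM in WT roots. All 3 *CEPDL2ox* libraries were below all 3 WT libraries, which lay close together with WT replicate 1 the highest. The *CEPDL2ox* mean was 0.761 times the WT mean, and the log2 fold change was -0.39 (standard error 0.08, limma adjusted p = 0.028), with a 95% interval between -0.56 and -0.21 and an exact permutation p of 0.10. Between about 1020 and 1705 reads per library stood behind these values. The call did not survive the loss of a library. In the 6 fits that each lacked a library, its log2 fold changes were between -0.44 and -0.35. The limma adjusted p ran between 0.059 and 0.089, at 0.089 without WT replicate 1. Over all genes tested, the number of calls fell from 1120 to between 358 and 610 in the same fits.

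**Figure D2:**
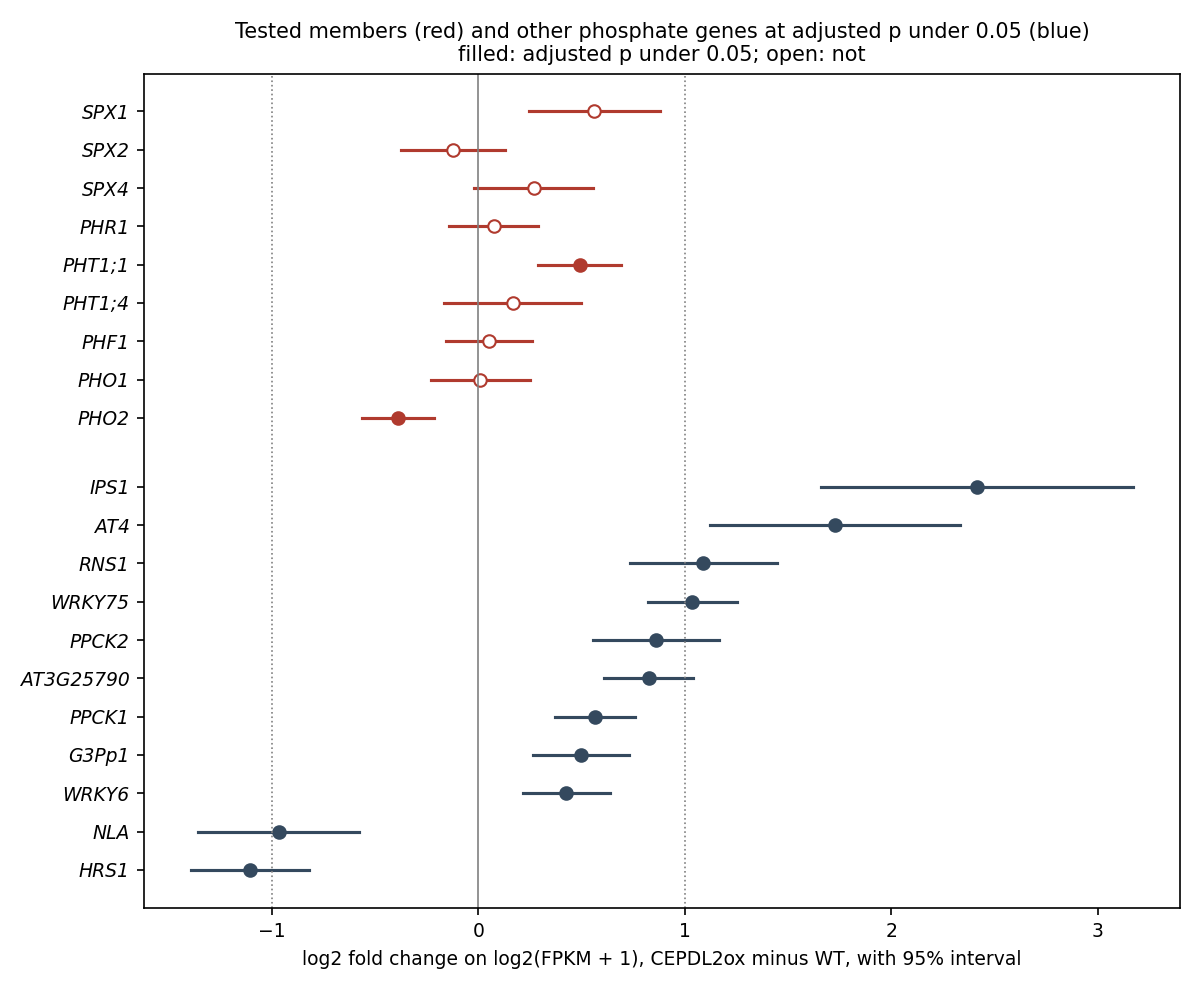
Log2 fold change (*CEPDL2ox* minus WT, horizontal axis) with its 95% interval for the 9 tested members (red) and the 11 other phosphate genes called at an adjusted p under 0.05 (blue), with filled points for called genes and dotted lines at the fold threshold. *PHT1;1* and *PHO2* lie on opposite sides of 0 at less than 0.5, while *AT4*, *RNS1* and *WRKY75* lie above 1 and *HRS1* below -1. The position of *IPS1* depends on the pseudocount of 1.

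The transcript of *PHO2* carries the sites through which miR399 acts, and they are shown because the levels of *PHO2* and of the RNAs that bind miR399 are set side by side. The mature miR399 sequences of the arm that targets *PHO2* share in RefSeq (TAIR10.1) the seed in capitals, bases 2 to 8, and the 6 genes give 5 distinct sequences, which differ only after the seed. The opposite arm, annotated as ath-miR399c-5p, has another seed and was left out. The sequences are written here as DNA, 5′ to 3′.
ath-miR399a: tGCCAAAGgagatttgccctg
ath-miR399b and ath-miR399c-3p: tGCCAAAGgagagttgccctg
ath-miR399d: tGCCAAAGgagatttgccccg
ath-miR399e: tGCCAAAGgagatttgcctcg
ath-miR399f: tGCCAAAGgagatttgcccgg

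With at most 4 mismatches, the 5′ UTR of *PHO2* held 5 stretches complementary to these sequences ahead of the coding part, all with the complement of the seed intact (capitals). Each is 2 mismatches from the miR399 it fits best. They are given in transcript order, on the minus strand of chromosome 2 of TAIR10.1.
chr2:14282106-14282126: tagggcaaatcttCTTTGGCa
chr2:14281973-14281993: tagggcatatctcCTTTGGCa
chr2:14281884-14281904: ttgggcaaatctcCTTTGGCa
chr2:14281827-14281847: tcgagcaaatctcCTTTGGCa
chr2:14281770-14281790: tagagcaaatctcCTTTGGCa

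Of 36561 transcripts searched, 1 for each gene, 36 held such an ungapped match. *IPS1* and *AT4* instead held a match interrupted by 3 extra bases opposite the middle of the microRNA, the known feature that stops cleavage, and 25 transcripts in all held one of that kind. The RNAs are regarded as noncoding, but both matches lie in short reading frames that RefSeq annotates. A match is a property of the letters and does not show that miR399 was bound in these roots.
*IPS1*, chr3:3051224-3051247, plus strand: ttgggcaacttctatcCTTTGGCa
*AT4*, chr5:895149-895172, plus strand: ttgggcaacttcgatcCTTTGGCa

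**Figure D3:**
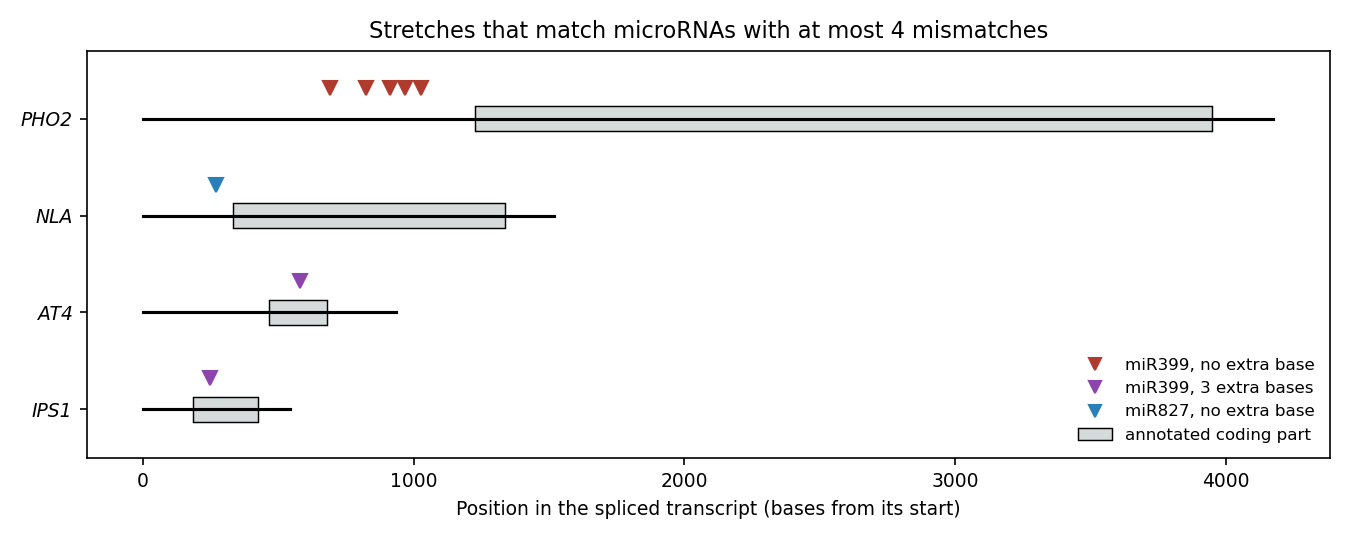
Positions of microRNA matches (triangles) along the spliced transcripts of *PHO2*, *NLA*, *AT4* and *IPS1*, in bases from the transcript start, with annotated coding parts as boxes. The 5 miR399 matches of *PHO2* and the miR827 match of *NLA* lie ahead of the coding part, and the matches of *AT4* and *IPS1* carry 3 extra bases.

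*AT4* (AT5G03545) and *IPS1* (AT3G09922) were both higher in *CEPDL2ox* roots. *AT4* had 60.2, 45.6 and 51.2 FPKM in *CEPDL2ox* roots, against 9.25, 20.97 and 17.2 FPKM in WT roots, and the lowest *CEPDL2ox* library was well above the highest WT library. The log2 fold change of *AT4* was 1.73 (standard error 0.26, limma adjusted p = 0.011), and without WT replicate 1, the lowest library, it was 1.41 (limma adjusted p = 0.010). The call was lost without *CEPDL2ox* replicate 1 (log2 fold change 1.62, limma adjusted p = 0.068). *IPS1* had 6.38, 6.93 and 4.002 FPKM in *CEPDL2ox* roots, against 0, 0.936 and 0 FPKM in WT roots. These are about 12, 13 and 7 reads against 0, 2 and 0 reads, and limma gave an adjusted p of 0.0070 in a model without counting error. With 2 WT libraries listed at 0, the fitted log2 fold change of *IPS1* was set by the pseudocount, at 2.41 with a pseudocount of 1 and 4.71 with 0.1, and it is no measure of the size of the difference.

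The relation between the miR399-binding RNA and its counterpart target can be set within a library, where scaling between libraries cancels. *AT4* had 1.07, 0.884 and 1.03 times the FPKM of *PHO2* in *CEPDL2ox* roots, against 0.130, 0.307 and 0.253 times in WT roots. *PHT1;1* had 2.53, 3.25 and 2.85 times the FPKM of *PHO2* in *CEPDL2ox* roots, against 1.52, 1.49 and 1.62 times in WT roots. Since *AT4* and *PHT1;1* lay above WT and *PHO2* below it in every library, these ratios could not overlap and are given as a description. The genes for miR399 and miR827 themselves, 7 loci with annotated precursors of 100 to 177 bases, were listed at 0 in every library. A gene listed at 0 in tables of this kind gives no upper limit for such short RNAs, and mature microRNAs were not measured.

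*NLA* (AT1G02860, *BAH1* in the tables) encodes a RING-type ubiquitin ligase that, with PHO2, removes PHT1 proteins, and it was lower in *CEPDL2ox* roots. It had 19.5, 19.4 and 16.5 FPKM in *CEPDL2ox* roots, against 28.2, 45.5 and 39.5 FPKM in WT roots. The log2 fold change of *NLA* was -0.97 (standard error 0.17, limma adjusted p = 0.019). WT replicate 1 was the lowest WT library, and without it the log2 fold change was -1.16 (limma adjusted p = 0.010), while leaving out any other library gave adjusted p-values between 0.058 and 0.075. The 5′ UTR of *NLA* holds a stretch complementary to the other phosphate-regulated microRNA, miR827, with 1 mismatch, at chr1:635401-635421 on the plus strand of TAIR10.1. In all, 23 transcripts held a match with at most 4 mismatches, and AT1G63010, annotated as a major facilitator protein with an SPX domain, was another.
ath-miR827: tTAGATGAccatcaacaaact
*NLA* site: tgtttgttgatggTCATCTAa

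The tables place *NLA* and AT1G02870, which lies on the opposite strand, in a single locus. Exons of *NLA* overlap those of AT1G02870 and those of another antisense gene, by 95 bases when both overlaps are added. The library kit did not mark strand, so reads from the shared part cannot be told apart. AT1G02870 had a mean of 70.9 FPKM in *CEPDL2ox* roots and 71.5 FPKM in WT roots (log2 fold change -0.01, limma adjusted p = 0.95). AT1G63010, with the second miR827 match, had 33.1, 29.6 and 29.9 FPKM in *CEPDL2ox* roots, against 33.7, 41.2 and 37.4 FPKM in WT roots. It lay lower without overlap, but the lowest WT library was close to the highest *CEPDL2ox* library, and it did not pass the test (log2 fold change -0.27, limma adjusted p = 0.15).

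Beyond the 10 genes, 79 further phosphate genes in 6 lists were read from the same fit. Of these, 59 were tested, 9 were higher and 2 were lower, beside 3.71% and 2.00% of all genes. With the fold threshold, 4 were higher, *IPS1* among them, and 1 was lower, beside 1.16% and 0.424%. The median log2 fold change of the 59 was 0.05. The lists were chosen with earlier results of these data known, so counts within them are a description and not a test. None of the 6 tested genes for transporters of organelles and the vacuole, and none of the 7 tested *PHO1* relatives, was called in limma, and 2 in each list had an unadjusted p under 0.05, beside 23.1% of all genes tested. The plastid phosphate transporter gene *PHT2;1* (AT3G26570) had 4.004, 4.21 and 2.56 FPKM in *CEPDL2ox* roots, against 18.1, 8.72 and 6.44 FPKM in WT roots. Its WT value was highest in WT replicate 1, the library with the most green tissue transcripts, and its log2 fold change of -1.30 (limma adjusted p = 0.067) was -0.91 without that library (limma adjusted p = 0.11). Among the *PHO1* relatives, *PHO1;H3* (AT1G14040) had 4.76, 3.56 and 3.56 FPKM in *CEPDL2ox* roots, against 7.61, 11.3 and 6.13 FPKM in WT roots. The gene lay lower without overlap but missed the threshold, with a log2 fold change of -0.89 (limma adjusted p = 0.058). *PHO1;H10* (AT1G69480) had 2.46, 2.22 and 2.30 FPKM in *CEPDL2ox* roots, against 1.11, 1.32 and 1.12 FPKM in WT roots. It lay above WT without overlap and missed the threshold too (log2 fold change 0.61, limma adjusted p = 0.11). The *PHO1* relative with the highest mean, AT2G03240, had a log2 fold change of -0.01 (limma adjusted p = 0.97).

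**Figure D4:**
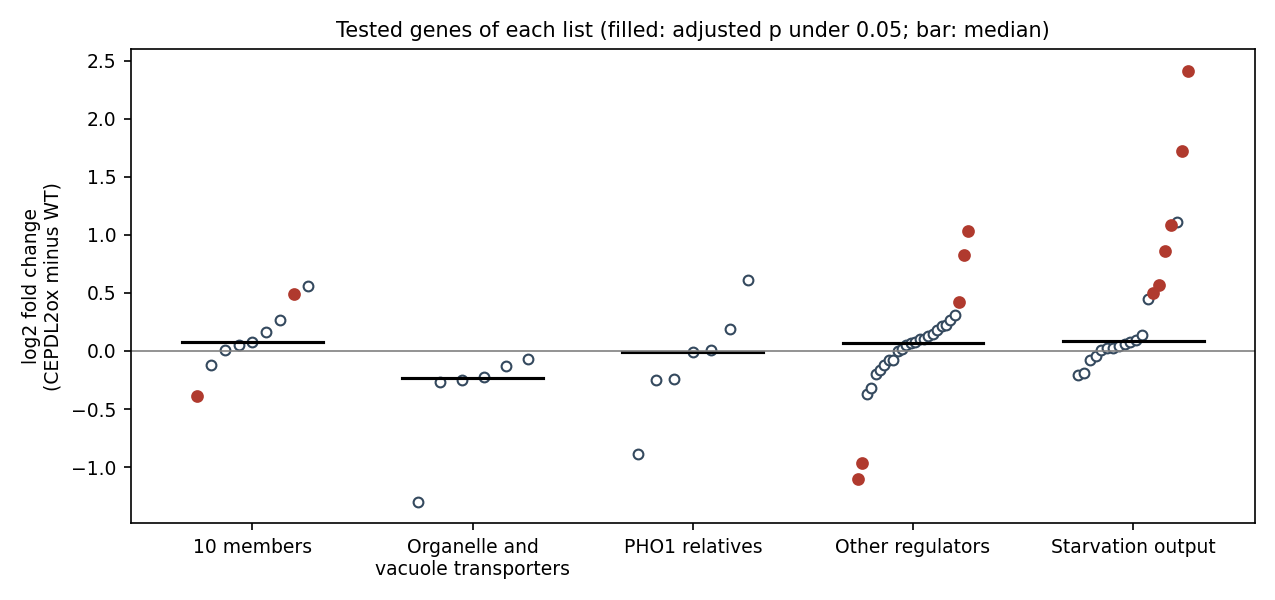
Log2 fold change (*CEPDL2ox* minus WT) of every tested gene in the group of 10 and in the lists of other phosphate genes that had tested genes, sorted within a list, with filled points for an adjusted p under 0.05 and a bar for the median. The calls fall among the 10 members (2), the other regulators (5) and the starvation output genes (6), while the medians lie near 0 except for the organelle and vacuole transporters, at -0.24, and the topmost point, *IPS1*, depends on the pseudocount.

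Of 26 tested regulators of the phosphate response, 3 were higher (3.71% of all genes tested) and 2 were lower (2.00%). These counts are a description, since the list was chosen with earlier results known. *WRKY75* (AT5G13080), a transcription factor induced in starved roots, had 51.8, 61.7 and 52.2 FPKM in *CEPDL2ox* roots, against 26.2, 27.5 and 25.4 FPKM in WT roots. The log2 fold change of *WRKY75* was 1.04 (standard error 0.09, limma adjusted p = 0.0014). The adjusted p stayed at 0.011 or less whichever library was left out, while the log2 fold change fell under the fold threshold without *CEPDL2ox* replicate 2 (0.955) and with the same summed FPKM (0.947). *WRKY6* (AT1G62300), a repressor of *PHO1*, had 68.6, 69.6 and 79.1 FPKM in *CEPDL2ox* roots, against 55.0, 49.2 and 56.7 FPKM in WT roots. It was higher without overlap (log2 fold change 0.43, limma adjusted p = 0.038), while *PHO1* did not differ detectably, and its call was lost whichever library was left out, with adjusted p-values between 0.069 and 0.099.

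*HRS1* (AT1G13300), a GARP-type repressor that answers to both nitrate and phosphate, was lower, and AT3G25790, annotated as a myb-like transcription factor, was higher. *HRS1* had 28.5, 25.9 and 20.8 FPKM in *CEPDL2ox* roots, against 50.1, 57.0 and 57.2 FPKM in WT roots. AT3G25790 had 58.1, 59.5 and 57.5 FPKM in *CEPDL2ox* roots, against 31.6, 29.6 and 36.7 FPKM in WT roots. The groups were far apart for both genes, with a log2 fold change of -1.11 (limma adjusted p = 0.0032) for *HRS1* and of 0.82 (limma adjusted p = 0.0035) for AT3G25790. Both calls held whichever library was left out. The inositol phosphate kinase genes *IPK1* (AT5G42810) and *ITPK1* (AT5G16760) and AT3G01310, a homologue of yeast Vip1, had adjusted p-values between 0.18 and 0.55 and log2 fold changes between 0.10 and 0.31, and none was called. *PHL1* (AT5G29000), the closest relative of *PHR1*, had a log2 fold change of 0.22 (limma adjusted p = 0.25).

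Of 20 tested output genes of phosphate starvation, 6 were higher (3.71% of all genes tested) and none was lower (2.00%). This list too was chosen with earlier results known, so the count is a description and not a test. Besides *AT4* and *IPS1*, *RNS1* (AT2G02990), which encodes a secreted ribonuclease that frees phosphate from RNA, had 34.3, 22.4 and 26.5 FPKM in *CEPDL2ox* roots, against 13.4, 11.7 and 11.9 FPKM in WT roots (log2 fold change 1.09, limma adjusted p = 0.0084). The PEP carboxylase kinase gene *PPCK1* (AT1G08650) had 152.3, 137.2 and 130.7 FPKM in *CEPDL2ox* roots, against 89.7, 93.2 and 99.8 FPKM in WT roots. *PPCK2* (AT3G04530) had 9.54, 8.91 and 8.39 FPKM in *CEPDL2ox* roots, against 4.25, 5.15 and 4.07 FPKM in WT roots. Both kinase genes were higher without overlap, with log2 fold changes of 0.57 (limma adjusted p = 0.0098) for *PPCK1* and 0.86 (limma adjusted p = 0.012) for *PPCK2*. The adjusted p of *PPCK2* was 0.065 without *CEPDL2ox* replicate 1 and 0.052 without *CEPDL2ox* replicate 2, and exons of *PPCK1* share 345 bases with those of an antisense gene, AT1G08645, whose reads cannot be told apart without strand. *G3Pp1* (AT3G47420, *ATPS3* in the tables), for a glycerol 3-phosphate permease homologue, had a log2 fold change of 0.50 (limma adjusted p = 0.032) that passed in only 1 of the 6 fits that lacked a library, the fit without WT replicate 3 (limma adjusted p = 0.040).

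The remaining 14 output genes were not called, and most lay close to WT. The acid phosphatase genes *PAP10*, *PAP12*, *PAP17* and *PAP26* had log2 fold changes of -0.21, 0.03, 0.03 and -0.05. Those of the genes that replace phospholipids by sulfolipids and galactolipids were -0.19 for *SQD1*, 0.08 for *SQD2*, -0.08 for *MGD2* and 0.01 for *MGD3*. The phosphatase gene *PECP1* (AT1G17710) had the largest difference among them, at 3.64, 1.62 and 2.39 FPKM in *CEPDL2ox* roots, against 0.378, 0.890 and 0.570 FPKM in WT roots. It did not overlap between groups but missed the threshold (log2 fold change 1.11, limma adjusted p = 0.062). *PLDZ2* (AT3G05630) came next, with a log2 fold change of 0.44 (limma adjusted p = 0.29), and its groups overlapped.

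**Figure D5:**
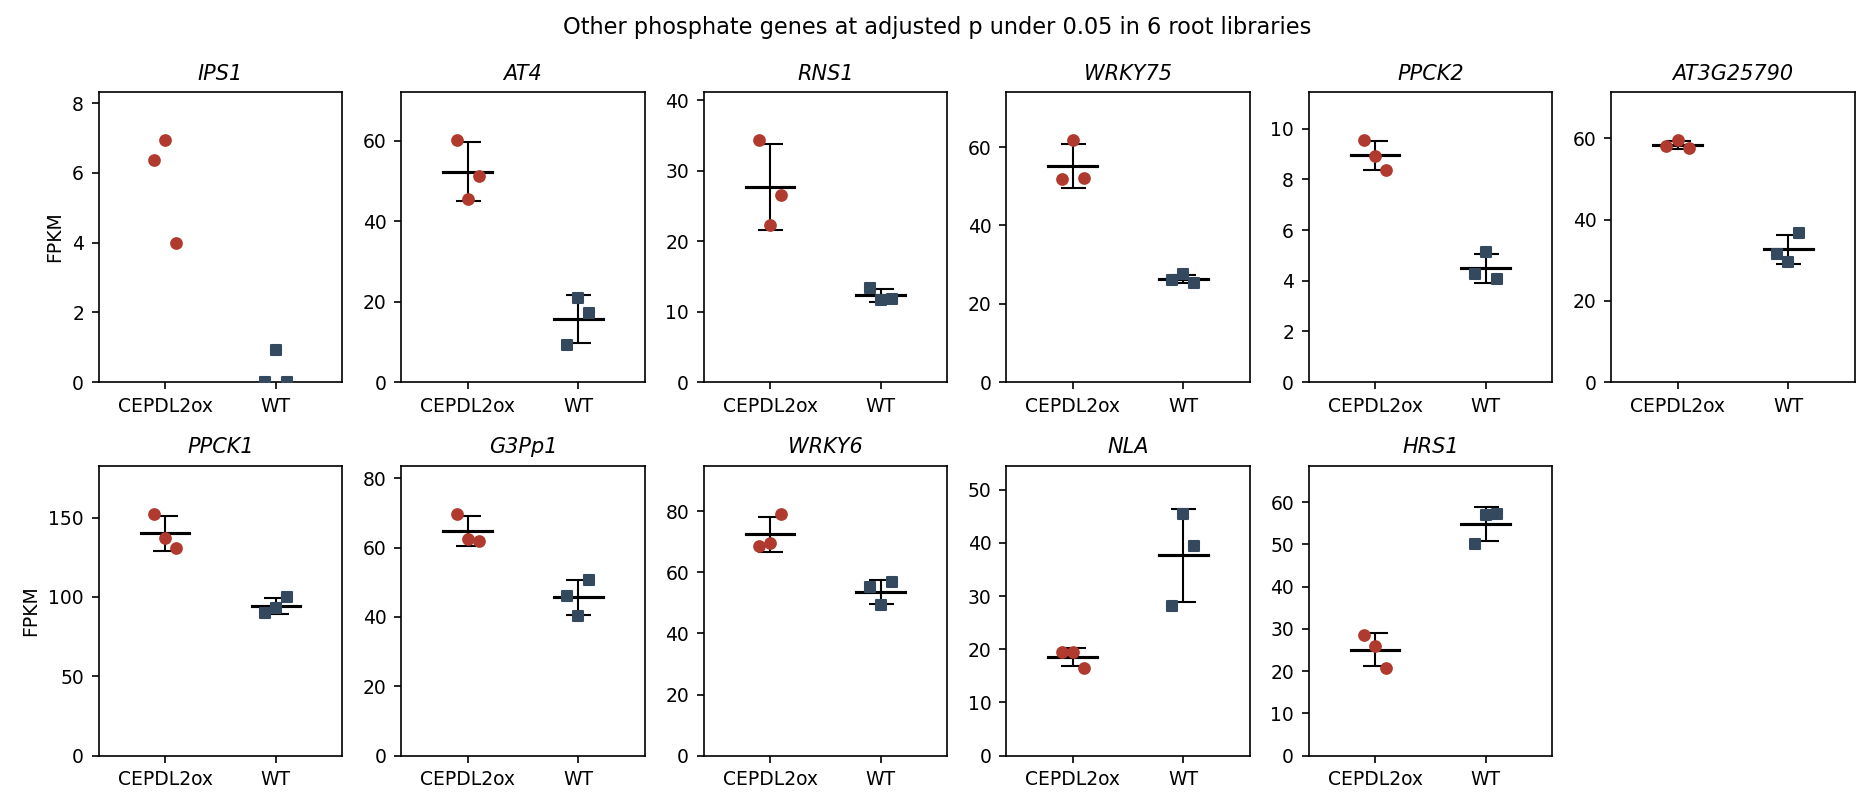
FPKM of the 11 other phosphate genes called at an adjusted p under 0.05 in each root library (points, *CEPDL2ox* left and WT right), with the mean and SD of the 3 libraries as bars except for *IPS1*, which is listed at 0 in 2 WT libraries. In each gene the groups do not overlap, and *NLA* and *HRS1* are lower in *CEPDL2ox*.

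The PHR1 motif GNATATNC was present in the 250 bases before the start of 4 of the 11 called genes outside the group of 10, compared with 5.4% of all genes tested. These were *AT4*, AT3G25790 and *PPCK1*, which were higher, and *HRS1*, which was lower, so that the motif occurred with both directions. The motif was not counted separately in the 48 tested genes of those lists that were not called. Whether it goes with the calls or with the choice of phosphate genes was therefore not tested. *PHT1;1*, *PHO2* and *SPX1* had no match in that window. The promoters of *AT4* and AT3G25790 are shown as examples from called genes, with the matches in capitals, on the plus strand of TAIR10.1 and ahead of the RefSeq start. That of *AT4* lies at chr5:894332-894581, with GCATATTC starting 26 bases before the start. That of AT3G25790 lies at chr3:9412802-9413051, with GGATATAC, GAATATTC and GTATATAC starting 194, 138 and 73 bases before the start.

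*AT4* promoter: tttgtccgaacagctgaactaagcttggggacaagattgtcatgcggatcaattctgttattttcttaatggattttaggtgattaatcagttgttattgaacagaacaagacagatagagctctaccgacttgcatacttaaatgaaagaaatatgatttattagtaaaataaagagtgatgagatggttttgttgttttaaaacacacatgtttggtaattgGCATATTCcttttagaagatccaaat

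AT3G25790 promoter: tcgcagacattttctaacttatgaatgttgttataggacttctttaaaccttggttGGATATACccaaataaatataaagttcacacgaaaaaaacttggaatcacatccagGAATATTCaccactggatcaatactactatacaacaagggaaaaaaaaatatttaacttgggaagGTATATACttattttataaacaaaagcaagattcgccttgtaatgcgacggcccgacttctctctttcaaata

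The tested genes whose pattern over the 6 libraries was most like that of *PHT1;1*, by the smallest root mean square difference in centred log2(FPKM + 1), were *BRG3* (AT3G12920, 0.0425), AT4G25670 (0.045) and AT5G43260 (0.05). *BRG3* had 39.2, 45.6 and 38.1 FPKM in *CEPDL2ox* roots, against 30.6, 26.4 and 30.9 FPKM in WT roots. Like the transporter gene, *BRG3* was highest in *CEPDL2ox* replicate 2 and lowest in WT replicate 2, a likeness that follows from its being picked over these same libraries. Of the root markers, the root hair expansin gene *EXPA7* (AT1G12560) moved in the same direction as *PHT1;1*, a gene also used in root hairs, at 80.7, 69.6 and 77.2 FPKM in *CEPDL2ox* roots, against 56.1, 52.3 and 58.2 FPKM in WT roots (log2 fold change 0.44, limma adjusted p = 0.027). The adjusted p of *EXPA7* was under 0.05 in 1 of the 6 fits that lacked a library, and 0.080 without WT replicate 1. Another root hair gene, *COBL9* (AT5G49270), had a log2 fold change of 0.09 (limma adjusted p = 0.62), and the part of root hair number in the transporter gene's value was not tested.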

How the data were processed

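The authors sequenced RNA from roots as single-end 75-bp reads with a kit that does not mark strand, mapped it to TAIR10 with the pipeline of the sequencing provider's online hub, and deposited FPKM per gene in 1 table per library, without pooling. The quantifier and its version are not given in the sources used here. log2(FPKM + 1) was fitted with limma 3.58.1 in R 4.3.3 (lmFit, then eBayes with its trend option) over all 6 libraries, without covariates, for the 19597 genes that averaged 1 FPKM or more. The script was tested on simulated data. The 10 genes and the gene lists were chosen with earlier results of these data known. All 10 genes and every other phosphate gene at an adjusted p under 0.05 were named, with others as examples.

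Of 33557 genes, 32813 matched RefSeq TAIR10.1 by identifier and 32812 of these overlapped in position, so sequences were read from that genome. Its annotated start can differ from that of the tables. Depth was estimated from FPKM times transcript length less 200 bases, which piles up at the value of 1 read. Alternatives were another pseudocount (0.1), no filter or a filter at 5 FPKM, 3 other scalings, no trend, a replicate block, and leaving out each library.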

Additional observations from a re-analysis of the deposited data

How the results depend on the processing

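The 2 calls among the 10 genes, *PHT1;1* and *PHO2*, kept their direction in all 14 alternatives but not always their call. The number called was 0 without the intensity trend (adjusted p 0.055 for *PHT1;1* and 0.065 for *PHO2*), and between 0 and 1 with a library left out: none without *CEPDL2ox* replicate 1, WT replicate 1 or WT replicate 2, *PHT1;1* without *CEPDL2ox* replicate 2 or 3, and *SPX1* without WT replicate 3. It was 3 with the 5 FPKM filter, which added *SPX1*. With the replicate number as a block it was 1, since *PHO2* moved to 0.057. Replicate numbers did not pair the libraries (correlations of deviations -0.032, 0.019 and 0.001), the block gave 840 calls among all genes in place of 1120, and outside the 10 genes *WRKY6* and *G3Pp1* lost their calls under it (0.051 each) and *PHT2;1* gained one. The same pair was lost with the same summed FPKM, which gained *PHT2;1* and *PHO1;H3*, and without the intensity trend, which gained *PHO1;H10*. None of the 10 passed the fold threshold in any alternative. The sign reversed for *PHO1* with the same summed FPKM (-0.08), with quantile normalization (-0.008) and with a library left out (-0.07 to 0.086), for *PHR1* with the same summed FPKM (-0.015) and with a library left out (-0.01 to 0.14), and for *PHF1* with the same summed FPKM (-0.037) and with a library left out (-0.006 to 0.11). The 11 calls among other phosphate genes became between 6 (without *CEPDL2ox* replicate 1) and 9 with a library left out, and 7 without *CEPDL2ox* replicate 2. Over all genes tested, the 1120 calls became between 358 (without *CEPDL2ox* replicate 1) and 610 (without WT replicate 3) in these fits, and 712 without the intensity trend. *WRKY75*, AT3G25790, *HRS1*, *IPS1*, *RNS1* and *PPCK1* were called in every alternative in which they were tested, and the other 7 called genes were not. Over all genes, 728 were higher and 392 lower, and with the same summed FPKM 552 were higher and 711 lower. The causes were not tested. Depth limits *SPX3* and *IPS1*, which rest on at most 3 and 13 reads per library.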
